A study of Neurospora crassa with 42 samples.

Results

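The Neurospora crassa genes cdt-1 (NCU00801), cdt-2 (NCU08114) and clp-1 (NCU05853), which encode sugar transporters of the major facilitator superfamily, were followed by RNA sequencing across 14 groups of 3 biological replicates. They are 3 of 9758 genes measured in each of 42 libraries. They were picked by identifier, not by their levels, but with earlier results of these data known. On build NC12, cdt-1 lies on chromosome I from 7121829 to 7125021, cdt-2 on chromosome I from 318873 to 321079, and clp-1 on chromosome VII from 4056218 to 4058155. The clp-1 locus starts 17677 bp beyond the end of clr-3 (NCU05846, VII from 4035638 to 4038540), with 5 other genes between them. The reference annotation gives symbols for cdt-1 and cdt-2; the name clp-1 comes from background knowledge of the field.

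Mycelia of all groups were grown from conidia in Vogel's medium with 2% sucrose at 25 °C for 16 h, washed, and moved either to Vogel's medium without carbon, called starvation medium here, or to the same medium with 2% Avicel, a microcrystalline cellulose. At 4 h, the groups were Δclr-1 and Δclr-2 on Avicel, Pccg1-clr-2 and Δclr-3 without carbon, and wild type (FGSC 2489) in both media. Pccg1-clr-2 expresses clr-2 from the ccg-1 promoter and lacks the native clr-2 gene. At 10 h, all without carbon, they were the double deletions Δcre-1Δclr-3, Δos-2Δclr-3 and Δos-1Δclr-3, the single deletions Δcre-1, Δos-2, Δos-1 and Δclr-3, and wild type.

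CDT-1 and CDT-2 bring cellodextrins, the short glucose chains released from cellulose by secreted cellulases, into the hypha, where an intracellular beta-glucosidase splits them to glucose. CDT-1 carries its sugar together with protons, and CDT-2 acts as a facilitator that also carries xylodextrins. CLP-1 resembles the cellodextrin transporters in sequence and has been linked to the strength of cellulase induction in N. crassa. The zinc cluster factors CLR-1 and CLR-2 activate the cellulose response, CLR-3 holds it back in the absence of cellulose, CRE-1 represses genes for the use of poorer carbon sources, and OS-1 and OS-2 are a histidine kinase and a MAP kinase of the osmosensing pathway.

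Levels are in FPKM (fragments per kilobase of a gene's transcript and normalised to the fragments of the library), so that levels of different genes are compared per length. Implied from the width of the deposited FPKM bounds, depth was 17.7 to 26.9 M (mega) fragments per library at 10 h and 5.05 to 46.6 M at 4 h, and the upper bounds of the members lay 0.313 to 6.33% above their FPKM. Every targeted gene was lower in each library labelled as lacking it than in any library keeping it: for clr-3, at most 1.42 FPKM in the 15 libraries lacking it, against at least 21.5 FPKM in the others. Wild type on Avicel replicate 1, the library of lowest depth, correlated with the other libraries of its group at a mean r of 0.896, against 0.948 and 0.940 for replicates 2 and 3. Wild type on starvation medium at 4 h, replicate 2, had 0.942, against 0.955 and 0.959. The log2 fold changes of the 3 genes that use either library, and levels and cdt-2 to cdt-1 ratios that move by over 1.5 times or change order, are also given without it. Strandedness was not stated, and the cdt-1 locus overlaps NCU10770, whose group means were 0 to 7.93 FPKM, so reads in the overlap cannot be told apart between both genes.

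Across the 14 groups, group means of cdt-1 spanned a 91.6-fold range, those of cdt-2 a 223-fold range and those of clp-1 an 18.2-fold range. Wild type on Avicel had the highest cdt-2 level, at 8487 ± 3507 FPKM, and the highest clp-1 level, at 3687 ± 2200 FPKM (10505 and 4956 FPKM without replicate 1). For both genes it overlapped Δos-2Δclr-3, the next group, through replicate 1 alone. The other wild type libraries had at least 10226 FPKM of cdt-2 and 4864 FPKM of clp-1. In Δos-2Δclr-3 the highest libraries had 6956 FPKM of cdt-2 and 3102 FPKM of clp-1. After median-ratio rescaling over all 42 libraries, Δos-2Δclr-3 ranked 1st for clp-1 and wild type on Avicel 2nd. The highest cdt-1 level was in Δos-2Δclr-3 at 10 h without carbon, at 4285 ± 240.1 FPKM (SD, n = 3 here and below). The lowest group means of cdt-2 and clp-1 were in Δcre-1, at 38.1 ± 7.84 and 202 ± 16.4 FPKM, and the lowest of cdt-1 was in Δos-1, at 46.8 ± 5.07 FPKM. Starved wild type at 4 h averaged 48.7 ± 27.8 FPKM of cdt-1 with all libraries and 32.8 FPKM without replicate 2, which then is the lowest cdt-1 mean of the 14 groups and makes the range 131-fold. In starved wild type, clp-1 stood above both other genes, at 572 ± 31.8 FPKM at 10 h, where cdt-1 had 51.0 ± 0.816 FPKM and cdt-2 76.4 ± 6.41 FPKM.

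**Figure D1:**
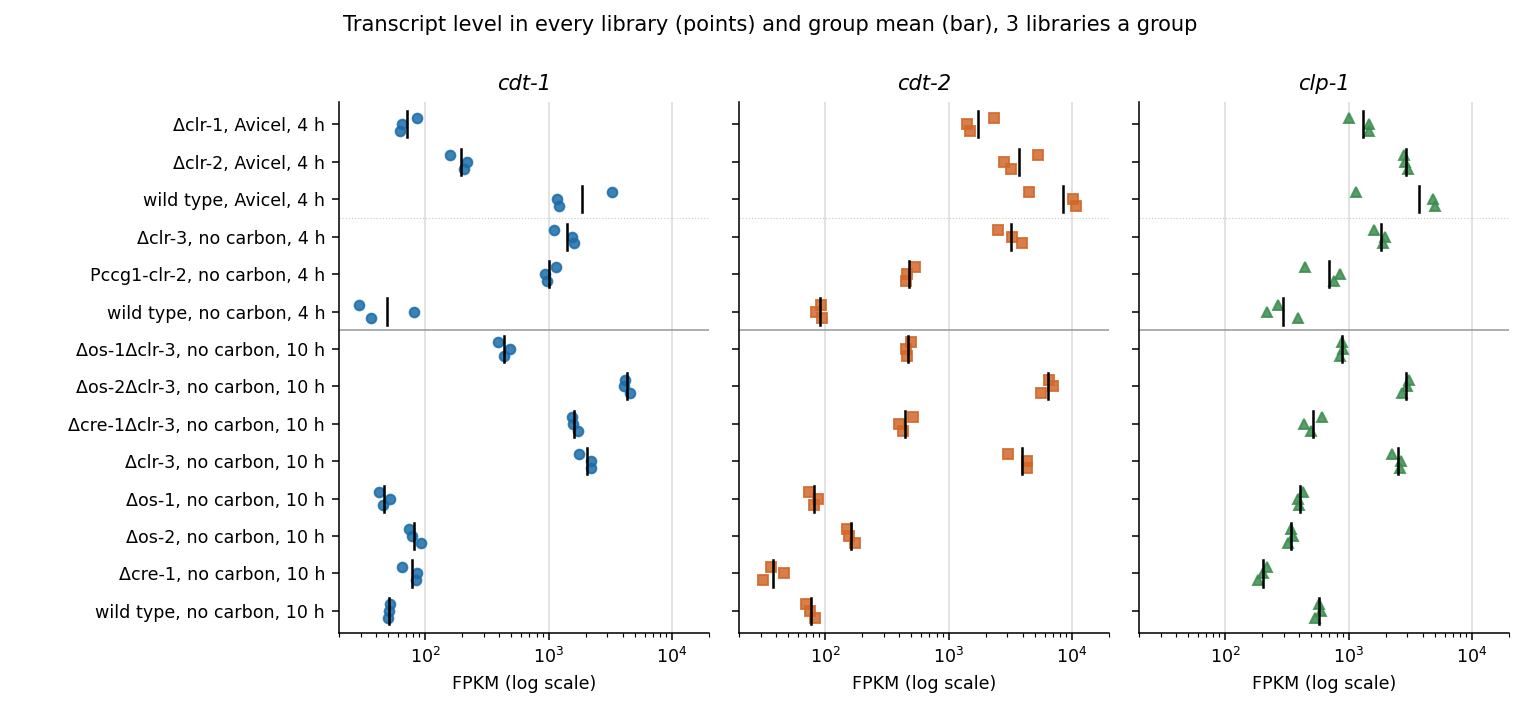
FPKM of cdt-1, cdt-2 and clp-1 (log axis, 1 panel per gene) in the 3 libraries of each of the 14 groups, which run down the page; points are libraries and bars are group means. On Avicel, wild type averaged 8487 FPKM of cdt-2, above clp-1 at 3687, whereas in starved wild type at 10 h clp-1 averaged 572 FPKM, above cdt-2 at 76.4 and cdt-1 at 51.0.

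Avicel against no carbon in wild type at 4 h asks how the 3 transporter genes respond to cellulose. All 3 rose. The cdt-2 level was 4451, 10226 and 10784 FPKM on Avicel, against 92.5, 84.4 and 94.6 FPKM without carbon. For cdt-1 it was 3248, 1164 and 1206 FPKM on Avicel, against 29.3, 80.6 and 36.2 FPKM without carbon. The clp-1 level was 1149, 4864 and 5049 FPKM on Avicel, against 268, 219.7 and 391 FPKM without carbon. No Avicel library overlapped a starved one for any of the 3, but Avicel replicate 1 stood apart in opposite ways, highest for cdt-1 and lowest for cdt-2 and clp-1.

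A gene was called when the Benjamini-Hochberg adjusted p of limma was under 0.05 and the log2 fold change was at least 1 in size. On that rule all 3 members were higher on Avicel, where 3.05% of the 8268 genes tested were called higher. Of these 8268 genes, 4297 had an unadjusted limma p under 0.05, so groups without overlap need not be particular to the members. The share of all genes without overlap is not given here or below. The log2 fold change was 6.43 ± 0.32 for cdt-2 (SE; adjusted p = 4.17e-10), 5.20 ± 0.37 for cdt-1 (adjusted p = 6.27e-08) and 3.41 ± 0.43 for clp-1 (adjusted p = 5.00e-05), and the median over all genes was -0.39. With 252 genes called higher and 618 lower as deposited, but 400 higher and 187 lower after median-ratio rescaling of the libraries, the background depends on the scaling. From the highest fold change down, cdt-2 was 26th, cdt-1 45th and clp-1 76th. Without Avicel replicate 1 the 3 values were 6.84, 4.71 and 4.12, and without starved replicate 2 they were 6.38, 5.63 and 3.23; each remained called. Folds are on the log2(FPKM + 1) scale throughout.

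The enzymes that make and split the transported sugars rose with them. Of 9 genes for cellulases and the cellodextrin-oxidizing cellobiose dehydrogenase, 8 were called higher and none lower, with a median log2 fold change of 8.33, and the endoglucanase gene gh5-1 had the largest at 10.49. All 5 genes for beta-glucosidases and cellobionate phosphorylase were called higher, led by gh1-1, the intracellular beta-glucosidase, at 7.38. Among 9 other sugar transporter genes only NCU06138 was called, higher at 4.57 ± 0.50 (2 of 9 after rescaling), and the median of the 9 was -0.20 as deposited and 0.23 rescaled. The 5 marker genes of conidia and aerial hyphae were all called lower on Avicel (4 of 5 after rescaling), where 7.47% of all genes were, with eas, the hydrophobin gene, at -2.57; their summed level was 1399 to 2432 FPKM on Avicel, against 7924 to 15574 FPKM without carbon, and none was at 0 in any library. Their part in the rise of the transporter genes was not tested. In these bulk samples fewer cells of a type and less RNA per cell cannot be told apart.

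**Figure D2:**
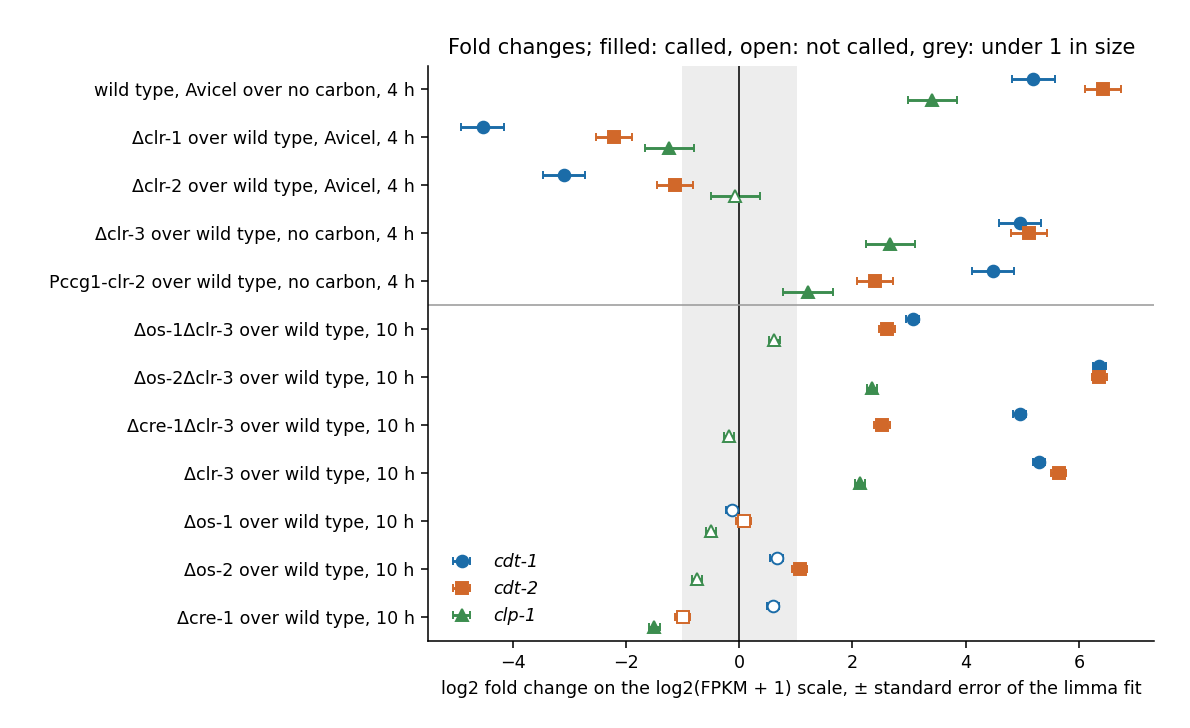
Log2 fold change (± SE of the limma fit) of cdt-1, cdt-2 and clp-1 in 12 comparisons at 4 h and 10 h; filled points were called, open points were not, and the grey band marks changes under 1 in size. In wild type on Avicel over no carbon the values were 5.20, 6.43 and 3.41, and in Δclr-2 over wild type on Avicel clp-1 sat at -0.07.

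On Avicel all 3 transporter genes were lower in Δclr-1 than in wild type, and cdt-1 and cdt-2 were lower in Δclr-2. The largest differences were those of cdt-1. It was at 86.7, 65.0 and 62.9 FPKM in Δclr-1 and at 158, 219 and 208 FPKM in Δclr-2, against 3248, 1164 and 1206 FPKM in wild type. Both deletion strains lay wholly below wild type, and Δclr-1 wholly below Δclr-2. The fold change over wild type was -4.53 ± 0.37 in Δclr-1 (limma adjusted p = 4.20e-07) and -3.10 ± 0.37 in Δclr-2 (limma adjusted p = 4.72e-05).

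The cdt-2 level was 2321.5, 1402 and 1496 FPKM in Δclr-1 and 5253, 2816 and 3184 FPKM in Δclr-2, against 4451, 10226 and 10784 FPKM in wild type. All Δclr-1 libraries were below wild type, whereas the highest Δclr-2 library exceeded the lowest wild type library. The log2 fold change was -2.22 ± 0.32 in Δclr-1 (limma adjusted p = 0.000240) and -1.13 ± 0.32 in Δclr-2 (limma adjusted p = 0.0164). The clp-1 level was 1014, 1473 and 1450.2 FPKM in Δclr-1 and 2828, 2862 and 3031 FPKM in Δclr-2, against 1149, 4864 and 5049 FPKM in wild type. In both strains it overlapped wild type through Avicel replicate 1, and its value over wild type was -1.23 ± 0.43 in Δclr-1 (limma adjusted p = 0.0388) and -0.07 ± 0.43 in Δclr-2 (limma adjusted p = 0.911, not called).

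Thus 3 of 3 members were called lower in Δclr-1, where 2.49% of all genes were, and 2 of 3 in Δclr-2, where 2.23% were. An unadjusted limma p under 0.05 was reached by 3941 of all 8268 genes in Δclr-1 and by 4082 in Δclr-2. Without wild type Avicel replicate 1, cdt-1 (-4.05) and cdt-2 (-2.63) in Δclr-1 and cdt-1 in Δclr-2 (-2.61) were still called. Likewise without it, clp-1 stood at -1.94 (limma adjusted p = 0.000286) in Δclr-1 and -0.77 (limma adjusted p = 0.0528, not called) in Δclr-2, and cdt-2 had -1.54 (limma adjusted p = 0.00153) in Δclr-2. The clp-1 call in Δclr-1 is a marginal one: among fits that left out 1 library it held only without that replicate, and it was lost when the fit held only the groups compared (limma adjusted p = 0.199) or used no filter on low values (limma adjusted p = 0.0572). The cdt-2 call in Δclr-2 held in 2 of 6 such fits, without wild type replicate 1 and without Δclr-2 replicate 1, and was lost with only the groups compared (limma adjusted p = 0.146).

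The cellulase list fell in both strains, with a median log2 fold change of -8.32 in Δclr-1, led by the cellobiohydrolase gene cbh-1 at -9.12, and -7.68 in Δclr-2, led by gh5-1 at -9.51; 8 of 9 were called lower in each, and the medians over all genes were 0.33 (Δclr-1) and 0.37 (Δclr-2). For the beta-glucosidase and phosphorylase list 5 of 5 were called lower in Δclr-1, led by gh3-6 at -5.93, and 4 of 5 in Δclr-2. None of the other sugar transporter genes was called lower in either strain, and 1 of 9, NCU00821, was called higher, at 1.61 with clr-1 deleted and 1.54 with clr-2 deleted. The conidia markers gave 0 of 5 called in either strain, with 1 of 5 at an unadjusted p under 0.05 in each. The clr-2 transcript averaged 1.63 FPKM in Δclr-1, against 182 ± 9.86 FPKM in wild type on Avicel, and the clr-1 transcript 73.2 FPKM in Δclr-2, against 108 FPKM in wild type.

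Set side by side with wild type without carbon, the Avicel-grown deletion strains still carried high cdt-2 and clp-1 levels. Here strain and medium differ together and cannot be told apart. In Δclr-1 the log2 fold change over starved wild type was 4.21 ± 0.32 for cdt-2 (limma adjusted p = 1.58e-06) and 2.18 ± 0.43 for clp-1 (limma adjusted p = 0.00939), while cdt-1 had 0.67 ± 0.37 (limma adjusted p = 0.356; 95% interval -0.13 to 1.47), with overlapping libraries. In Δclr-2 it was 5.30 ± 0.32 for cdt-2 (limma adjusted p = 1.86e-07), 3.35 ± 0.43 for clp-1 (limma adjusted p = 0.000230) and 2.10 ± 0.37 for cdt-1 (limma adjusted p = 0.00490). That is 2 of 3 members called higher in Δclr-1, where 1.32% of all genes were, and 3 of 3 in Δclr-2, where 1.37% were; cdt-2 ranked 4th of the 8268 genes in Δclr-2, clp-1 17th and cdt-1 53rd.

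Few cellulase genes passed the test against starved wild type. Only gh5-1 (1.77) was called among the 9 in Δclr-1 and only gh6-3 (1.42) in Δclr-2, and the list's median was 0.13 (Δclr-1) and 0.19 (Δclr-2), beside medians over all genes of -0.07 (Δclr-1) and -0.04 (Δclr-2). The beta-glucosidase gene gh1-1 was called higher with clr-1 deleted (1.71) and with clr-2 deleted (2.85). So was the transporter gene NCU06138, at 4.65 (Δclr-1) and 4.73 (Δclr-2). Conidia markers called lower were 2 of 5 in Δclr-1 and 1 of 5 in Δclr-2, with eas at -3.27 (Δclr-1) and -2.30 (Δclr-2); their part was not tested. Without starved replicate 2, cdt-1 in Δclr-1 had 1.09 (limma adjusted p = 0.0851, not called), while cdt-2 (4.16) and clp-1 (1.99) in Δclr-1, and cdt-1 (2.53), cdt-2 (5.26) and clp-1 (3.16) in Δclr-2, were called. The clp-1 call in Δclr-1 was lost without replicate 2 of that strain (2.09). With only the groups compared, cdt-1 in Δclr-2 was not called (limma adjusted p = 0.0594), and with the replicate number as a block 234 genes were called in Δclr-2, against 147 without it.

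Between Δclr-1 and Δclr-2 on Avicel, all libraries of Δclr-1 were below all of Δclr-2 for each of the 3 genes. The log2 difference was -1.43 for cdt-1 (95% interval -2.23 to -0.64; limma adjusted p = 0.685), -1.09 for cdt-2 (95% interval -1.77 to -0.41; limma adjusted p = 1.00) and -1.17 for clp-1 (95% interval -2.09 to -0.25; limma adjusted p = 1.00). None of the 3 was called, although each had an unadjusted p under 0.05. These fits share the spread of all groups at 4 h. With only the groups compared, the limma adjusted p was 0.0862 for cdt-1, 0.177 for clp-1 and 0.999 for cdt-2, none called. Limma called 0.109% of all genes here, 9 in number, and 113 had an unadjusted p under 0.05.

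Without carbon at 4 h, Δclr-3 and Pccg1-clr-2 show whether removing the repressor, or driving clr-2 from another promoter, raises the transporter genes in the absence of cellulose. All 3 genes rose in both strains, to different degrees. The cdt-1 level was 1101, 1562 and 1599.6 FPKM in Δclr-3 and 1157, 930.4 and 963 FPKM in Pccg1-clr-2, against 29.3, 80.6 and 36.2 FPKM in wild type. The cdt-2 level was 2510.1, 3247 and 3911 FPKM in Δclr-3 and 530.4, 464 and 448 FPKM in Pccg1-clr-2, against 92.5, 84.4 and 94.6 FPKM in wild type. The clp-1 level was 1594, 1959.6 and 1905 FPKM in Δclr-3 and 447, 855 and 762 FPKM in Pccg1-clr-2, against 268, 219.7 and 391 FPKM in wild type. Neither strain overlapped wild type for any of the 3, and the 2 strains overlapped each other for cdt-1 alone.

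In Δclr-3 the log2 fold change over wild type was 4.96 ± 0.37 for cdt-1 (limma adjusted p = 1.81e-07), 5.12 ± 0.32 for cdt-2 (limma adjusted p = 1.41e-08) and 2.67 ± 0.43 for clp-1 (limma adjusted p = 0.000507). In Pccg1-clr-2 it was 4.49 ± 0.37 for cdt-1 (limma adjusted p = 3.55e-07), 2.39 ± 0.32 for cdt-2 (limma adjusted p = 6.00e-05) and 1.22 ± 0.43 for clp-1 (limma adjusted p = 0.0432). All 3 members were thus called higher in each strain, against 3.16% of all genes in Δclr-3 and 2.77% in Pccg1-clr-2. An unadjusted limma p under 0.05 was reached by 3446 of all 8268 genes in Δclr-3 and by 3509 in Pccg1-clr-2. Without starved wild type replicate 2, cdt-1, cdt-2 and clp-1 stood at 5.38, 5.07 and 2.48 in Δclr-3, and cdt-1 and cdt-2 at 4.91 and 2.35 in Pccg1-clr-2, all still called. The clp-1 call in Pccg1-clr-2 was lost without starved wild type replicate 2 (1.03, limma adjusted p = 0.127) or 1 (1.17), without Pccg1-clr-2 replicate 2 (1.03) or 3 (1.12), and with no filter on low values (limma adjusted p = 0.0636).

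The cellulase list followed a different order from cdt-2 and clp-1. In Pccg1-clr-2 all 9 of its genes were called higher, with a median log2 fold change of 7.79 and gh5-1 at 9.56. In Δclr-3 it was 7 of 9, with a median of 5.77 and the cellobiohydrolase gene gh6-2 at 8.41; the median over all genes was -0.29 in Pccg1-clr-2 and -0.19 in Δclr-3. The beta-glucosidase gene gh1-1 rose by 4.18 in Pccg1-clr-2 and 6.20 in Δclr-3, and 2 of 5 genes of its list were called higher in Pccg1-clr-2 and 4 of 5 in Δclr-3. Of the other transporter genes NCU06138 was called higher in both, at 4.15 in Pccg1-clr-2 and 1.50 in Δclr-3, and NCU05627 was called lower in Pccg1-clr-2, at -2.03 (-1.74 and not called after rescaling). No conidia marker of 5 was called in either strain, with 0 at an unadjusted p under 0.05 in Pccg1-clr-2 and 1 in Δclr-3; their summed level was 3987 to 11417 FPKM in Pccg1-clr-2 and 4906 to 7771 FPKM in Δclr-3, against 7924 to 15574 FPKM in wild type.

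Compared directly, Pccg1-clr-2 was lower than Δclr-3 for cdt-2 by a log2 fold change of -2.72 ± 0.32 (limma adjusted p = 1.48e-05) and for clp-1 by -1.45 ± 0.43 (limma adjusted p = 0.0186). For cdt-1 the value was -0.47 ± 0.37 (limma adjusted p = 0.359, not called). So 2 of 3 members were called lower, where 7.97% of all genes were. In the same comparison 7 of 9 cellulase genes were called higher in Pccg1-clr-2, where 5.33% of all genes were, with a median of 1.37 against a median over all genes of -0.06, and 3 of 5 of the beta-glucosidase list were called lower, with gh3-6 at -5.33. The clr-2 transcript averaged 298 ± 81.2 FPKM in Pccg1-clr-2 and 32.9 FPKM in Δclr-3. The clp-1 call was lost without Δclr-3 replicate 2 (-1.39) or 3 (-1.41) and without Pccg1-clr-2 replicate 1 (-1.17).

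In both strains without carbon the cdt-2 level was below that of wild type on Avicel. Over that level the log2 fold change of cdt-2 was -4.04 ± 0.32 in Pccg1-clr-2 (limma adjusted p = 4.84e-07) and -1.31 ± 0.32 in Δclr-3 (limma adjusted p = 0.00533). The clp-1 value was -2.20 ± 0.43 in Pccg1-clr-2 (limma adjusted p = 0.00212) and -0.75 in Δclr-3 (limma adjusted p = 0.195, not called). The cdt-1 value was not called in either, at -0.71 in Pccg1-clr-2 (limma adjusted p = 0.174) and -0.24 in Δclr-3 (limma adjusted p = 0.645). Members called lower were 2 of 3 in Pccg1-clr-2, against 5.15% of all genes, and 1 of 3 in Δclr-3, against 4.43%. Without wild type Avicel replicate 1, the Pccg1-clr-2 value was -2.90 for clp-1, -4.45 for cdt-2 (both still called) and -0.23 for cdt-1 (not called). The Δclr-3 value without it was -1.45 for clp-1 (limma adjusted p = 0.000857, called), -1.73 for cdt-2 (still called) and 0.24 for cdt-1, on the other side of 0 and not called. With only the groups compared, the cdt-2 call in Δclr-3 (limma adjusted p = 0.0716) and the clp-1 call in Pccg1-clr-2 (limma adjusted p = 0.0801) were lost.

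Within a library, the ratio of cdt-2 to cdt-1 differed between strains. Its geometric mean was 23.6 in Δclr-1 on Avicel and 18.6 in Δclr-2 on Avicel, against 4.76 in wild type on Avicel. The log2 ratio in the wild type Avicel libraries was 0.45, 3.13 and 3.16, so replicate 1 stood apart, but even the higher pair lay below every Δclr-1 and Δclr-2 library. Without carbon at 4 h the ratio was 0.474 in Pccg1-clr-2 and 2.26 in Δclr-3, against 2.02 in wild type, whose libraries had log2 ratios of 1.62, 0.07 and 1.36. Without the library that stands apart, wild type had a geometric mean ratio of 8.86 on Avicel and 2.81 without carbon, and the Δclr-3 mean at 4 h then lay below the starved wild type mean. Pccg1-clr-2 was one of 3 groups in which cdt-1 exceeded cdt-2 on average. The others, both at 10 h and both lacking cre-1, were Δcre-1Δclr-3 with a ratio of 0.275 and Δcre-1 with 0.491, against 1.48 in wild type.

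Groups did not overlap in 6 of the 10 ratio comparisons that were tested, those of Δclr-1 and Δclr-2 with wild type on Avicel, of Pccg1-clr-2 with starved wild type at 4 h, and of Δclr-3, Δos-2 and Δcre-1 with wild type at 10 h. Each reached the exact two-sided permutation p of 0.1 (0.167 after Benjamini-Hochberg adjustment over the 10), which is the smallest that 3 against 3 libraries allow. The other 4 comparisons overlapped, with exact permutation p between 0.2 and 1. No share over other gene pairs is given, so a lack of overlap need not be particular to cdt-1 and cdt-2. The ratio of clp-1 to cdt-2 crossed 1: its geometric mean was 0.386 in wild type on Avicel, against 3.12 without carbon, and 0.650 in Δclr-3 at 10 h, against 7.42 in wild type at 10 h.

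**Figure D3:**
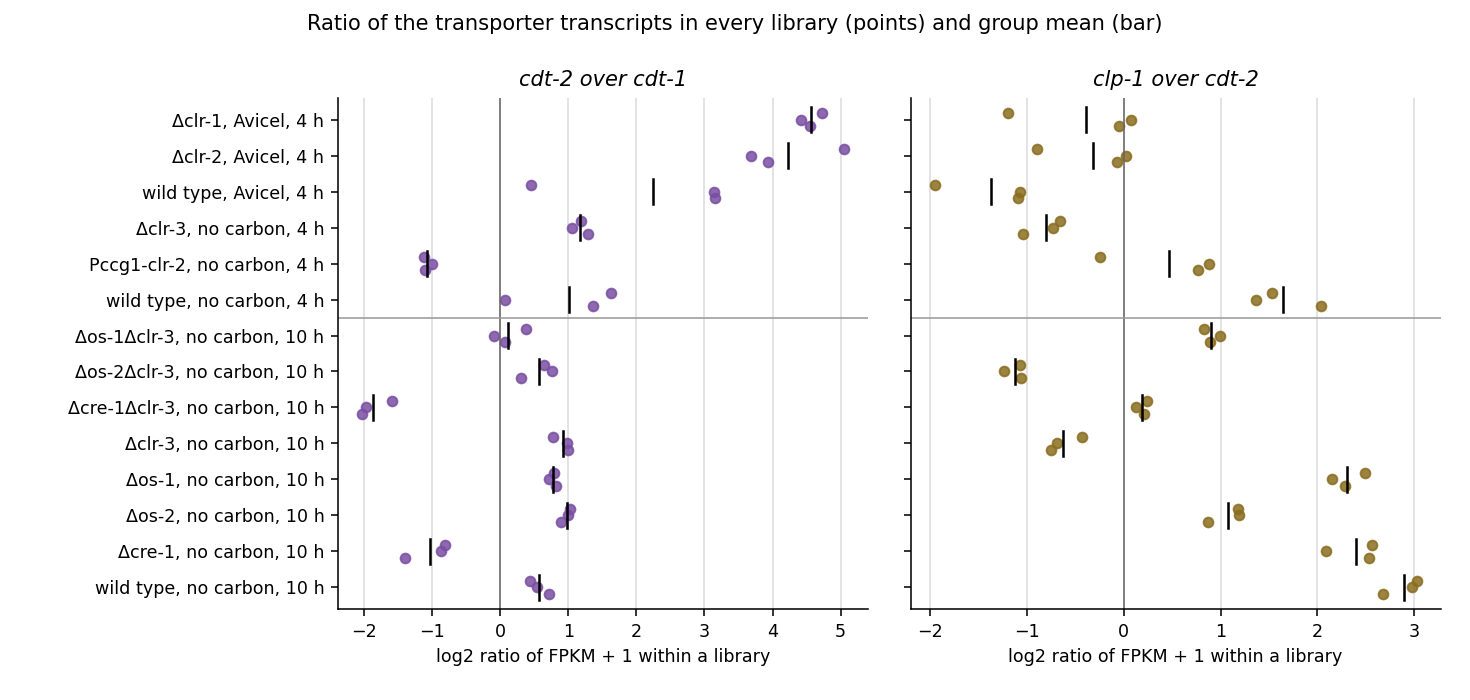
Log2 ratio of FPKM + 1 within each library, of cdt-2 over cdt-1 (left) and of clp-1 over cdt-2 (right), for the 14 groups down the page; points are libraries and bars are group means. The cdt-2 to cdt-1 ratio was below 0 in Pccg1-clr-2 (mean -1.08), Δcre-1 (-1.03) and Δcre-1Δclr-3 (-1.86) and highest in Δclr-1 on Avicel (4.56).

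After 10 h without carbon, deletion of clr-3 alone raised all 3 genes. The cdt-1 level was 1774, 2186.5 and 2191 FPKM in Δclr-3, against 51.7, 51.1 and 50.1 FPKM in wild type. The cdt-2 level was 3052, 4319 and 4353 FPKM in Δclr-3, against 70.6, 75.1 and 83.3 FPKM in wild type. The clp-1 level was 2259.6, 2683 and 2594 FPKM in Δclr-3, against 581, 598 and 537 FPKM in wild type. The groups were far apart for each gene, and clp-1, the gene with the highest level in wild type, had the smallest fold.

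The log2 fold change was 5.30 ± 0.11 for cdt-1 (limma adjusted p = 5.37e-19), 5.64 ± 0.14 for cdt-2 (limma adjusted p = 4.21e-18) and 2.13 ± 0.09 for clp-1 (limma adjusted p = 1.02e-13). All 3 were called higher, where 2.93% of the 8014 genes tested were. Among the 8014 genes, cdt-2 ranked 18th, cdt-1 22nd and clp-1 102nd, and 6041 genes had an unadjusted limma p under 0.05. Genes called numbered 235 higher and 211 lower as deposited, and 320 higher and 67 lower after rescaling. Of the cellulase list 8 of 8 tested were called higher, with a median of 6.05 and gh6-2 at 7.67, against a median over all genes of -0.29, and gh1-1 rose by 6.76. Among 9 other sugar transporter genes only NCU06138 was called, at 1.75. No conidia marker of 5 was called, although 3 had an adjusted p under 0.05 and failed only the fold threshold. They were eas at -0.94 (limma adjusted p = 0.00268), fl at -0.59 (limma adjusted p = 0.00110) and con-8 at 0.22 (limma adjusted p = 0.0102). The Δclr-3 effect at 10 h minus that at 4 h was 0.34 ± 0.42 for cdt-1, 0.53 ± 0.25 for cdt-2 and -0.54 ± 0.26 for clp-1 (limma adjusted p of 0.584, 0.134 and 0.144). None was called, none had an unadjusted p under 0.05, and 6.42% of all genes were called; without starved 4 h wild type replicate 2 the values were -0.09 for cdt-1, 0.58 for cdt-2 and -0.35 for clp-1, none called.

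In strains with clr-3 intact, single deletions of os-1, os-2 and cre-1 gave smaller differences from wild type, and not in 1 direction. In Δos-1 the cdt-1 level was 42.7, 52.4 and 45.2 FPKM and the cdt-2 level 74.7, 86.9 and 80.9 FPKM, both overlapping wild type. The clp-1 level was 426, 389 and 397 FPKM in Δos-1, wholly below wild type at 581, 598 and 537 FPKM. The log2 fold change in Δos-1 was -0.13 for cdt-1 (limma adjusted p = 0.377), 0.08 for cdt-2 (limma adjusted p = 0.651) and -0.50 ± 0.09 for clp-1 (limma adjusted p = 0.000205, below the fold threshold). None of 3 members was called, though clp-1 had an unadjusted p under 0.05, and 2.68% of all genes were called. An unadjusted limma p under 0.05 was reached by 4045 of all 8014 genes in Δos-1. Summed conidia markers were at 13082 to 19978 FPKM in Δos-1, against 5766 to 8821 FPKM in wild type, with 1 of 5 called higher (eas, 1.68) and 1 lower (con-10, -1.05; not called after rescaling); their part was not tested.

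In Δos-2 the cdt-1 level was 73.8, 77.7 and 93.5 FPKM and the cdt-2 level 152, 156 and 175 FPKM, both wholly above wild type. The clp-1 level in Δos-2 was 345, 357 and 321 FPKM, wholly below wild type. Only cdt-2 was called, higher at 1.07 ± 0.14 (limma adjusted p = 5.82e-07), where 4.48% of all genes were called higher. For cdt-1 the log2 fold change was 0.66 ± 0.11 (limma adjusted p = 2.37e-05) and for clp-1 -0.74 ± 0.09 (limma adjusted p = 4.34e-07), both under 1 in size. The median over all genes was -0.24, and 6088 of all 8014 genes had an unadjusted limma p under 0.05. Summed conidia markers were at 19679 to 21332 FPKM in Δos-2, against 5766 to 8821 FPKM in wild type, with 2 of 5 called higher (eas, 2.09, and fl, 1.48) and 1 lower (con-10, -2.62), or 3 higher and 1 lower after rescaling. Their part in the Δos-2 values was not tested. Set against each other, Δos-1 over Δos-2 gave -0.79 for cdt-1 (limma adjusted p = 3.68e-06), -0.99 for cdt-2 (limma adjusted p = 2.29e-06) and 0.24 for clp-1 (limma adjusted p = 0.0250). All 3 had an unadjusted p under 0.05 but none reached the fold threshold (cdt-2 did after median-ratio rescaling, at -1.11), and 9.1% of all genes were called.

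In Δcre-1 the 3 genes split. The cdt-1 level was 64.4, 86.4 and 84.1 FPKM, wholly above wild type, whereas cdt-2 had 36.3, 46.7 and 31.3 FPKM and clp-1 had 219, 202 and 186 FPKM, both wholly below. Only clp-1 was called, lower at -1.50 ± 0.09 (limma adjusted p = 5.47e-11), where 3.13% of all genes were called lower. The cdt-2 value of -0.999 ± 0.14 (limma adjusted p = 2.07e-06) fell just short of the fold threshold and was called, at -1.02, with a pseudocount of 0.1. For cdt-1 it was 0.60 ± 0.11 (limma adjusted p = 0.000101, below the fold threshold). An unadjusted limma p under 0.05 was reached by 5508 of all 8014 genes in Δcre-1. Summed conidia markers were at 9695 to 15952 FPKM in Δcre-1, against 5766 to 8821 FPKM in wild type, with 2 of 5 called higher (eas, 1.33, and con-6, 1.14) and 1 lower (con-10, -1.91); their part in the Δcre-1 values was not tested. None of the 8 cellulase genes was called in Δos-1, Δos-2 or Δcre-1, with 0, 2 and 0 of them at an unadjusted p under 0.05. In Δos-2 these were gh5-1 at -0.75 (limma adjusted p = 0.0121) and gh6-3 at -0.66 (limma adjusted p = 0.0175), under the fold threshold. The clr-2 transcript averaged 1.34 FPKM in Δos-1, 2.37 in Δos-2 and 6.75 in Δcre-1, against 1.89 FPKM in wild type, and was called higher in Δcre-1 (log2 fold change 1.41).

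The double deletions ask whether the rise in Δclr-3 depends on os-1, os-2 or cre-1. The answer differed between strains and between the 3 genes. The cdt-1 level was 386, 484 and 437 FPKM in Δos-1Δclr-3, 4198, 4101 and 4557 FPKM in Δos-2Δclr-3 and 1538, 1566 and 1740.5 FPKM in Δcre-1Δclr-3, against 1774, 2186.5 and 2191 FPKM in Δclr-3. The cdt-2 level was 500.1, 453 and 458 FPKM in Δos-1Δclr-3, 6538, 6956 and 5644 FPKM in Δos-2Δclr-3 and 511, 398 and 427 FPKM in Δcre-1Δclr-3, against 3052, 4319 and 4353 FPKM in Δclr-3. The clp-1 level was 887, 904 and 851 FPKM in Δos-1Δclr-3, 3102, 2959.8 and 2709 FPKM in Δos-2Δclr-3 and 604, 436 and 492 FPKM in Δcre-1Δclr-3, against 2259.6, 2683 and 2594 FPKM in Δclr-3. For every one of the 3 genes, Δos-1Δclr-3 and Δcre-1Δclr-3 lay wholly below Δclr-3 and Δos-2Δclr-3 wholly above it, but the gap of Δcre-1Δclr-3 was narrow for cdt-1 and that of Δos-2Δclr-3 narrow for clp-1. Differences from Δclr-3 were common. An unadjusted limma p under 0.05 was reached by 4493 of all 8014 genes in Δos-1Δclr-3, 6134 in Δos-2Δclr-3 and 6558 in Δcre-1Δclr-3.

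Deleting os-1 from the Δclr-3 strain lowered all 3 genes. The log2 fold change of Δos-1Δclr-3 over Δclr-3 was -2.23 ± 0.11 for cdt-1 (limma adjusted p = 1.38e-12), -3.03 ± 0.14 for cdt-2 (limma adjusted p = 1.74e-13) and -1.51 ± 0.09 for clp-1 (limma adjusted p = 3.74e-11); 2.55% of all genes were called lower. Over wild type, cdt-1 was still higher in the double deletion at 3.07 ± 0.11 (limma adjusted p = 3.16e-14) and cdt-2 at 2.61 ± 0.14 (limma adjusted p = 6.79e-12), where 4.07% of all genes were called higher. For clp-1 the value was 0.62 ± 0.09 (limma adjusted p = 4.48e-06), with no overlap but under the fold threshold. Over Δos-1, all 3 were called higher, at 3.19, 2.53 and 1.12 for cdt-1, cdt-2 and clp-1, against 2.17% of all genes.

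Unlike cdt-1 and cdt-2, no cellulase gene was called in Δos-1Δclr-3 over wild type. Of the 8, 1 had an adjusted p under 0.05 but was under the fold threshold, gh5-1 at 0.61 (limma adjusted p = 0.0360). The median was 0.05, against a median over all genes of -0.29. The cbh-1 gene averaged 36.1 FPKM in Δos-1Δclr-3 and 4717 FPKM in Δclr-3, against 31.6 FPKM in wild type. Of the beta-glucosidase list 3 of 5 were called higher over wild type, gh3-3 at 3.20, gh3-4 at 2.67 and gh1-1 at 2.32. Of the other sugar transporter genes 2 of 9 were called higher and 1 lower (3 and 0 after rescaling), with NCU05627 largest at 1.91. The clr-2 transcript averaged 8.47 ± 0.620 FPKM in Δos-1Δclr-3 and 89.0 ± 18.2 FPKM in Δclr-3, against 1.89 FPKM in wild type. Summed conidia markers were at 16803 to 20660.5 FPKM in Δos-1Δclr-3, against 4668 to 5103 FPKM in Δclr-3, with 2 of 5 called higher and 1 lower over Δclr-3. Their part in the lower transporter levels was not tested.

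The interaction, the effect of the os-1 deletion in Δclr-3 minus its effect with clr-3 intact, was -2.10 ± 0.16 for cdt-1 (limma adjusted p = 4.12e-09), -3.12 ± 0.19 for cdt-2 (limma adjusted p = 1.29e-10) and -1.01 ± 0.13 for clp-1 (limma adjusted p = 1.42e-05). All 3 were called, where 1.61% of all genes were called lower. The clp-1 value sat close to the fold threshold and was not called in 5 of 12 fits that left out 1 library (-1.08 to -0.96): those without wild type replicate 3, Δclr-3 replicate 2 or 3, Δos-1 replicate 1 or Δos-1Δclr-3 replicate 3. All 8 cellulase genes were called lower, with a median of -6.01 against 0.10 over all genes, and gh1-1 had -5.36.

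Deleting os-2 from the Δclr-3 strain had the opposite direction. Over Δclr-3, Δos-2Δclr-3 was higher by 1.07 ± 0.11 for cdt-1 (limma adjusted p = 4.69e-08), the only member called, where 2.72% of all genes were called higher. For cdt-2 it was 0.72 ± 0.14 (limma adjusted p = 7.63e-05) and for clp-1 0.22 ± 0.09 (limma adjusted p = 0.0367), both under the fold threshold, although each group lay wholly above Δclr-3. The median over all genes was -0.29 here, and after rescaling each library by its median ratio cdt-2 was called as well, at 1.04; the cdt-1 call was lost without Δclr-3 replicate 1 (0.97). Summed conidia markers were at 7666 to 10659 FPKM in Δos-2Δclr-3, against 4668 to 5103 FPKM in Δclr-3, with 1 of 5 called higher (eas, 1.63) and none lower; their part was not tested. Over wild type the log2 fold change was 6.36 ± 0.11 for cdt-1 (limma adjusted p = 2.59e-20), 6.36 ± 0.14 for cdt-2 (limma adjusted p = 3.72e-19) and 2.35 ± 0.09 for clp-1 (limma adjusted p = 3.70e-15), against 5.03% of all genes called higher. Over Δos-2 the values were 5.70, 5.30 and 3.10, all called, against 3.06%.

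The interaction of os-2 and clr-3 was 0.41 ± 0.16 for cdt-1 (limma adjusted p = 0.0476), -0.35 ± 0.19 for cdt-2 (limma adjusted p = 0.156) and 0.97 ± 0.13 for clp-1 (limma adjusted p = 1.02e-05). None of 3 was called, 2 had an unadjusted p under 0.05, and 4.62% of all genes were called; after median-ratio rescaling clp-1 was called, at 1.05. Of 8 cellulase genes 7 were called higher in the interaction, where 1.95% of all genes were, with a median of 1.88 against -0.08 over all genes. Over Δclr-3 also 7 of 8 were called higher, with cdh-1, the cellobiose dehydrogenase gene, at 2.00. The remaining gene, gh7-2, was higher at 0.72 (limma adjusted p = 0.000207), under the fold threshold. The clr-2 transcript averaged 182 ± 12.2 FPKM in Δos-2Δclr-3 and 89.0 ± 18.2 FPKM in Δclr-3.

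Deleting cre-1 from the Δclr-3 strain lowered cdt-2 and clp-1, and the small difference of cdt-1 was not called. Over Δclr-3 the log2 fold change of Δcre-1Δclr-3 was -3.12 ± 0.14 for cdt-2 (limma adjusted p = 1.03e-13) and -2.31 ± 0.09 for clp-1 (limma adjusted p = 3.66e-14), both called lower, where 10.1% of all genes were. For cdt-1 it was -0.34 ± 0.11 (limma adjusted p = 0.00897, under the fold threshold), where the median over all genes was -0.38, and after median-ratio rescaling it was 0.06. Over wild type, cdt-1 was higher at 4.96 ± 0.11 (limma adjusted p = 2.73e-18) and cdt-2 at 2.52 ± 0.14 (limma adjusted p = 2.96e-13), where 5.05% of all genes were called higher. For clp-1 the value was -0.17 ± 0.09 (limma adjusted p = 0.0814), overlapping wild type, where the median over all genes was -0.64; it was 0.54 after rescaling, and not called either way.

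Over Δcre-1, the double deletion was higher for all 3, at 4.36 for cdt-1, 3.52 for cdt-2 and 1.32 for clp-1, against 3.07% of all genes called higher. The interaction of cre-1 and clr-3 was -2.12 ± 0.19 for cdt-2 (limma adjusted p = 3.04e-08), the only member called, where 4.23% of all genes were called lower. It was -0.94 ± 0.16 for cdt-1 (limma adjusted p = 5.50e-05) and -0.81 ± 0.13 for clp-1 (limma adjusted p = 3.17e-05). All 8 cellulase genes were called lower in this interaction, with a median of -3.44 against -0.21 over all genes, and 4 of 5 of the beta-glucosidase list, with gh1-1 at -4.03. Over wild type 5 of 8 cellulase genes remained higher, with cbh-1 at 4.53. The clr-2 transcript averaged 31.0 ± 5.10 FPKM in Δcre-1Δclr-3, and summed conidia markers were at 8082 to 10746 FPKM, against 4668 to 5103 FPKM in Δclr-3, with 2 of 5 called higher and 2 lower; their part was not tested. All comparisons with wild type at 10 h share its 3 libraries, as those with Δclr-3 share that group's.

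**Figure D4:**
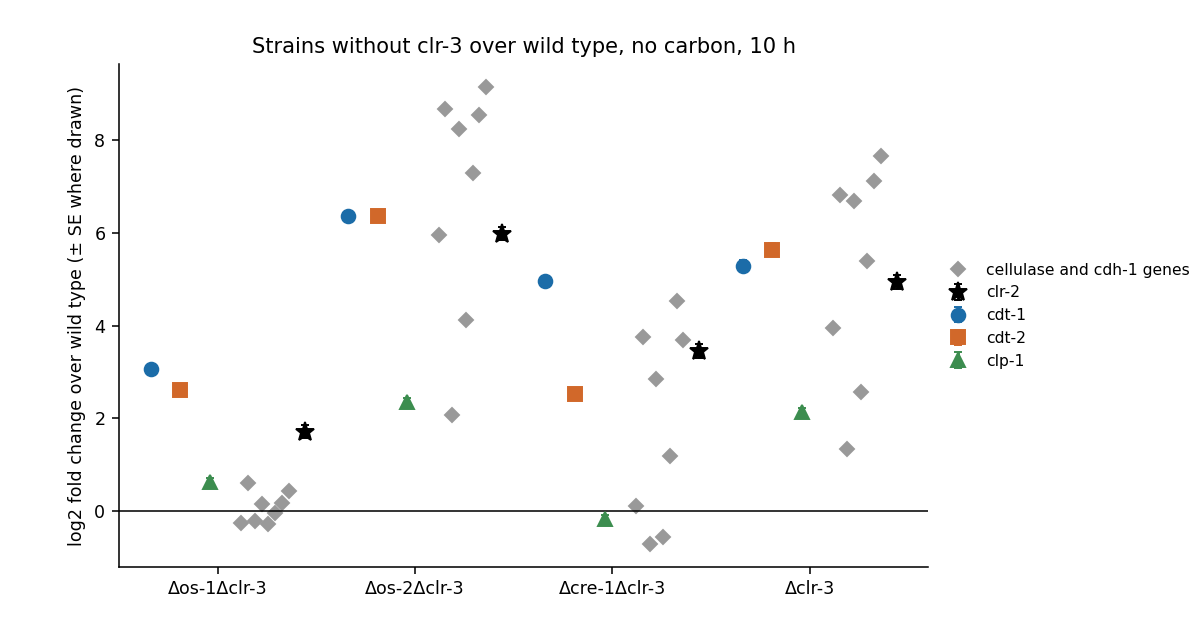
Log2 fold change over wild type at 10 h without carbon in Δos-1Δclr-3, Δos-2Δclr-3, Δcre-1Δclr-3 and Δclr-3, for cdt-1, cdt-2, clp-1 and clr-2 (± SE where drawn) and for 8 genes of cellulases and cellobiose dehydrogenase (grey). In Δos-1Δclr-3 cdt-1 sat at 3.07 and cdt-2 at 2.61, while the median of the grey genes was 0.05; in Δcre-1Δclr-3 cdt-1 sat at 4.96 and clp-1 at -0.17.

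On chromosome VII clp-1 neighbours clr-3, and the labels do not describe the construct that replaced clr-3. All Δclr-3 strains share that change, so loss of CLR-3 protein and the change of the locus cannot be told apart from them alone. With clr-3 intact, clp-1 rose on Avicel in wild type (3.41) and in Pccg1-clr-2 without carbon (1.22). The Pccg1-clr-2 call was marginal (limma adjusted p = 0.0432) and held in 2 of 6 fits that left out 1 library. With clr-3 deleted, its log2 fold change over wild type at 10 h ran from -0.17 in Δcre-1Δclr-3 to 2.35 in Δos-2Δclr-3.

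The neighbours of the pair are 11 genes: the 5 between clr-3 and clp-1 and the nearest 3 beyond each. In Δclr-3 at 10 h 3 of 7 tested were called higher and none lower: NCU05852, which lies 716 bp before clp-1, at 3.52 ± 0.14, NCU05854, 2639 bp after it, at 2.03 ± 0.12, and NCU05855 at 3.99 ± 0.22. Their mean levels were 34.8, 39.2 and 52.7 FPKM in Δclr-3, against 2.21, 8.73 and 2.33 FPKM in wild type. Of all 8014 genes tested in this comparison, 235 were called higher and 211 lower. The 4 other neighbours tested were not called, with NCU05844 at 0.15, NCU05850 at 0.14, NCU05856 at -0.30 and NCU05843 at -0.64, and NCU05845 was listed at 0 in all wild type libraries, against a mean of 0.853 FPKM in Δclr-3 at 10 h.

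In Δclr-3 at 4 h 3 of 9 neighbours were called higher, NCU05848 at 3.12, NCU05855 at 2.52 and NCU05854 at 1.61. Of all 8268 genes, 261 were called higher there. NCU05848 was not tested at 10 h. On Avicel in wild type, clr-3 is intact and itself rose to a mean of 408 FPKM, against 23.7 FPKM without carbon. There the same 3 neighbours were called higher, at 1.84, 1.82 and 1.18, against 252 of all 8268 genes. In Pccg1-clr-2 none of the 9 was called by limma, where 868 of all 8268 genes were. Of the 9, only NCU05843 had an unadjusted p under 0.05, at -0.59 (limma adjusted p = 0.0346, under the fold threshold). In the double deletions 3 of 7 were called higher in Δos-1Δclr-3, 3 in Δos-2Δclr-3 and 4 in Δcre-1Δclr-3, NCU05852 and NCU05855 in each. Of all 8014 genes, 326, 403 and 405 were called higher in these strains, in that order. NCU05844, nearer to clr-3, was called higher in Δos-1Δclr-3 (1.22) and Δcre-1Δclr-3 (2.21), but not in Δos-2Δclr-3 (0.11). Called lower were 1 of 7 in Δos-2Δclr-3 (NCU05850, -1.19), where 1601 of all genes were, and 1 in Δcre-1Δclr-3 (NCU05856, -1.06), where 2219 were. Both were under 1 in size after rescaling (-0.55 and -0.45). Rescaling also brought NCU05854 in Δos-1Δclr-3 (0.74 as deposited, 1.02 rescaled) and NCU05852 on Avicel (0.78 as deposited, 1.20 rescaled) past the fold threshold.

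**Figure D5:**
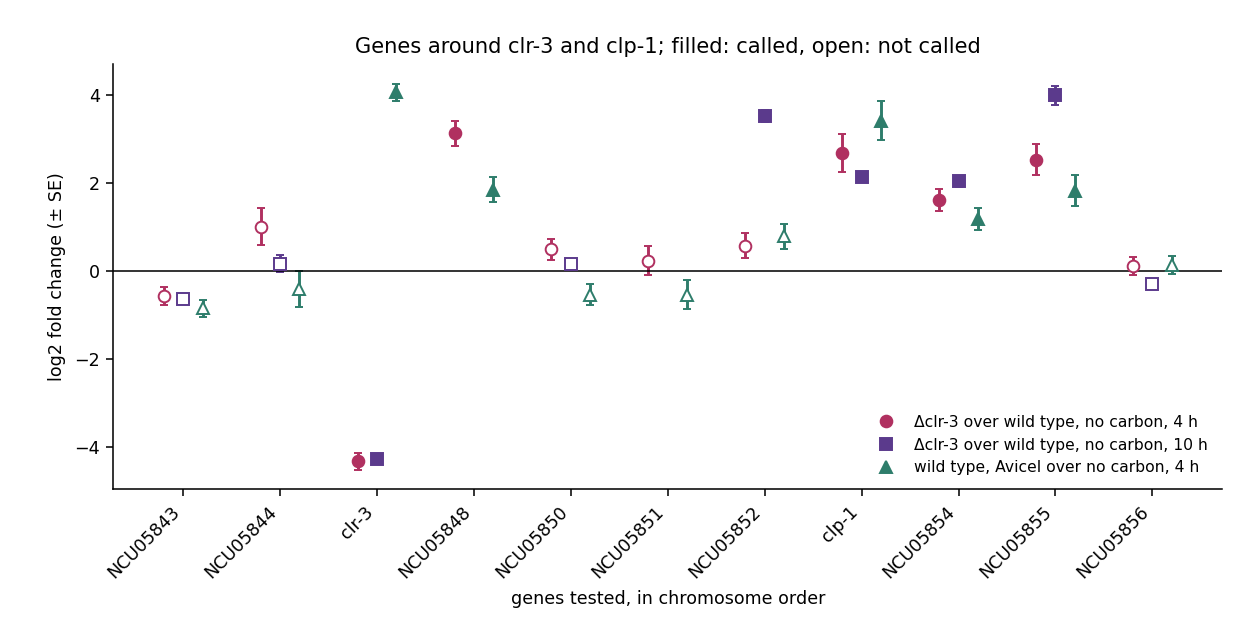
Log2 fold change (± SE) of the tested genes around clr-3 and clp-1, in chromosome order, in Δclr-3 over wild type at 4 h, in Δclr-3 over wild type at 10 h and in wild type on Avicel over no carbon. At 10 h NCU05852, clp-1, NCU05854 and NCU05855 stood at 3.52, 2.13, 2.03 and 3.99, and NCU05844 and NCU05850, which lie nearer to clr-3, at 0.15 and 0.14. NCU05848, which also lies nearer to clr-3, stood at 3.12 in Δclr-3 at 4 h and was not tested at 10 h.

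Ordered by mean level, the 3 genes ranked the groups differently. For cdt-1 the order was Δos-2Δclr-3, Δclr-3 at 10 h, wild type on Avicel, Δcre-1Δclr-3, Δclr-3 at 4 h (1421 ± 278 FPKM) and Pccg1-clr-2 (1017 ± 122), then Δos-1Δclr-3 (436 ± 49.1), Δclr-2 on Avicel (195 ± 32.6), Δos-2, Δcre-1, Δclr-1 on Avicel (71.5 ± 13.2), wild type at 10 h, wild type at 4 h (48.7 ± 27.8) and Δos-1. Neighbours in this order overlapped in 8 of 13 places, so ranks 2 to 6 from Δclr-3 at 10 h to Pccg1-clr-2 form a run without a gap, and the same holds from Δos-2 to Δclr-1 and for the 3 lowest groups. Without its replicate 1, wild type on Avicel had a cdt-1 mean of 1185 FPKM, below Δclr-3 at 4 h. The run then has a gap after Δclr-3 at 10 h. Its lowest library had 1774 FPKM, against 1740.5 FPKM in the highest of Δcre-1Δclr-3.

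For cdt-2 the order was wild type on Avicel, Δos-2Δclr-3 (6379 ± 670 FPKM), Δclr-3 at 10 h (3908 ± 741), Δclr-2 on Avicel (3751 ± 1314), Δclr-3 at 4 h (3223 ± 701), Δclr-1 on Avicel (1740 ± 506), Pccg1-clr-2 (481 ± 43.8), Δos-1Δclr-3 (471 ± 25.8), Δcre-1Δclr-3 (445 ± 58.5), Δos-2 (161 ± 12.4), wild type at 4 h (90.5 ± 5.38), Δos-1, wild type at 10 h and Δcre-1. Neighbours overlapped in 7 of 13 places; Δclr-3 at 10 h, Δclr-2 and Δclr-3 at 4 h ran together, as did Pccg1-clr-2 with Δos-1Δclr-3 and Δcre-1Δclr-3.

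For clp-1 the order was wild type on Avicel, Δos-2Δclr-3 (2924 ± 199 FPKM), Δclr-2 on Avicel (2907 ± 109), Δclr-3 at 10 h (2512 ± 223), Δclr-3 at 4 h (1820 ± 197), Δclr-1 on Avicel (1312 ± 259), Δos-1Δclr-3 (881 ± 26.7), Pccg1-clr-2 (688 ± 214), wild type at 10 h, Δcre-1Δclr-3 (511 ± 85.7), Δos-1 (404 ± 19.3), Δos-2 (341 ± 18.4), wild type at 4 h (293 ± 88.3) and Δcre-1. Neighbours overlapped in 6 of 13 places, among them Pccg1-clr-2 with wild type at 10 h and Δcre-1Δclr-3. Wild type on Avicel also overlapped Δos-2Δclr-3, through its replicate 1 alone, and with all libraries these groups traded places after median-ratio rescaling. Levels at 4 h and 10 h come from separate sampling times and were set side by side without a test.

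Likeness of pattern was measured as Pearson r over the 14 group means of log2(FPKM + 1), as a description; the points share libraries within a group and the same scaling. Of 8244 other genes, clp-1 was the most like cdt-2 (r = 0.962) and cdt-2 the most like clp-1. This also held with Spearman's rho (0.934) and over the 42 libraries (r = 0.942). After clp-1, the genes most like cdt-2 were gh1-1 (0.90), gh47-3 (0.873), NCU09689 (0.872) and msh3 (0.862), the gene beside cdt-2 on the chromosome. For clp-1 they were msh3 (0.881), xlr-1, the xylanase regulator gene (0.867), NCU09689 (0.861) and gh1-1 (0.851).

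The genes most like cdt-1 were instead gh61-3 (0.940) and gh61-4 (0.918), which encode polysaccharide monooxygenases, NCU02009 (0.923), cbh-1 (0.902) and gh6-2 (0.902). Between cdt-1 and cdt-2 r was 0.749, and between cdt-1 and clp-1 it was 0.661. With clr-2, r was 0.872 for cdt-1 (the 11th most like it), 0.513 for cdt-2 (189th) and 0.414 for clp-1 (278th).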

How the data were processed

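Tools listed in the submitters' processing notes, without roles, are HISAT2 2.0.5 and Cufflinks 2.2.1; strandedness is not stated. The authors deposited FPKM per gene and library, with bounds, for 9758 genes on NC12, and no read counts are used here. Depth was implied from the bounds, assuming that they cover Poisson counting error only. For cdt-1 the upper bounds stayed at least 4.14% above the FPKM even at its highest levels, so this need not hold for that gene. Genes with a status other than OK in any library (12) were dropped. log2(FPKM + 1) was fitted in R 4.3.3 with limma 3.58.1 (linear models, contrasts and trended eBayes) for genes averaging 1 FPKM or more: 1 fit of 18 libraries at 4 h (8268 genes), 1 of 24 at 10 h (8014 genes) and 1 of 12 for the time comparison (8284 genes), with Benjamini-Hochberg adjustment over all genes tested. The fits were tested on simulated data. The authors' whole-series FPKM table has columns equal to single libraries times a constant and numbers replicates differently in 31 of 42; it served as an alternative scaling. Named genes are the members, the targeted genes, the neighbours of clr-3 and clp-1, the 5 genes most like each member and, per list, the called gene of largest change; other genes were named after their values were seen. Members and lists were chosen with earlier results of these data known. Replicates are labelled biological; p-values measure the spread between them. Same-numbered libraries deviated together (every pair's r above 0.1) in 5 of 25 comparisons, and the results given use no block.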

Additional observations from a re-analysis of the deposited data

Results flagged for a closer look

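The effect of the os-1 deletion differed between strains lacking and keeping clr-3, by the limma interaction test within the fit of 24 libraries at 10 h. The difference was -2.10 for cdt-1, -3.12 for cdt-2 and -1.01 for clp-1 on the log2 scale. The effect of the cre-1 deletion differed likewise for cdt-2, by -2.12.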

How the results depend on the processing

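Over 87 member values and 1287 alternatives, 1230 kept direction and call, 30 lost a call, 19 gained one and 8 turned sign; 21 values were affected. The replicate block changed 0 of 87; with it, Avicel-grown Δclr-1 over starved wild type called 250 genes, against 165 without, and Δclr-2 234, against 147. After rescaling (median ratio or the authors' whole-series table) clp-1 in Δcre-1Δclr-3 over wild type was 0.54, cdt-1 in Δcre-1Δclr-3 over Δclr-3 was 0.061 and 0.0588, against -0.34, and the clp-1 interaction of os-2 and clr-3 was 1.05 and 1.07. Leaving out 1 library moved the log2 value of clp-1 from -1.94 to -0.87 (Δclr-1 over wild type, Avicel), -0.77 to 0.30 (Δclr-2), 1.03 to 1.50 (Pccg1-clr-2 over wild type), -1.08 to -0.96 (os-1 interaction) and 0.89 to 1.02 (os-2 interaction). It moved cdt-2 from -1.54 to -0.90 (Δclr-2) and -1.15 to -0.87 (Δcre-1), and cdt-1 from -0.50 to 0.24 (Δclr-3 over wild type on Avicel), -1.07 to -0.86 (cre-1 interaction) and -0.0872 to 0.63 (time). A pseudocount of 0.1 gave cdt-2 in Δcre-1 its call (-1.02). With only the groups compared, 5 member values lost their calls. Over wild type on Avicel they were clp-1 in Δclr-1 (-1.23) and starved Pccg1-clr-2 (-2.20), and cdt-2 in Δclr-2 (-1.13) and starved Δclr-3 (-1.31). The last was cdt-1 in Avicel-grown Δclr-2 over starved wild type (2.10). With no filter, clp-1 lost its call in Δclr-1 (-1.23) and in Pccg1-clr-2 over starved wild type (1.22). A pseudocount of 5 moved the number of genes called by over 1.5 times in 26 of 29 comparisons, as in Δclr-3 at 10 h (245 against 446); only the groups compared did so in 6 of 28 (290 against 870 on Avicel), median-ratio rescaling in 4 of 29 and the whole-series table in 6 of 29 (989 against 2004 in Δos-2Δclr-3, 1326 against 2624 in Δcre-1Δclr-3). Median-ratio rescaling moved the share of higher calls by over 10 points in 23 of 29 comparisons: to 32.5% from 70.1% in Δclr-1, 19.5% from 65.5% in Δclr-2, 50.6% from 29.7% in Δclr-3 at 4 h, 53.9% from 26.4% in Pccg1-clr-2, 78.9% from 48.5% in Δos-1Δclr-3, 66.0% from 20.1% in Δos-2Δclr-3 and 64.4% from 15.4% in Δcre-1Δclr-3, each over wild type. The cause was not tested. Levels rescaled over all 42 libraries, by which no group moved by more than 2 ranks for any member, and levels and ratios without wild type Avicel replicate 1 or starved wild type replicate 2 at 4 h were chosen after seeing the data. Depth could be implied only from the deposited bounds. Of the 18 libraries at 4 h, 2 of wild type were treated as standing apart from their groups. Replicate 1 of Δclr-1, of Δclr-2 and of Pccg1-clr-2 also correlated less with its group than the other replicates did.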
